A study of Homo sapiens with 3 samples.

Results

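The regions described are the bases of the long arms of the 5 acrocentric chromosomes, 13, 14, 15, 21 and 22, in U2OS cells, a human osteosarcoma line. The windows are defined by coordinates and not by peak values, though they were picked with earlier results of these data known. They begin just beyond the active alpha satellite array of each centromere on the T2T-CHM13 assembly. The windows ran from 17.6 to 21 Mb on chromosome 13, from 12.8 to 16 Mb on chromosome 14, from 17.8 to 22 Mb on chromosome 15, from 11.4 to 15 Mb on chromosome 21 and from 15.8 to 20 Mb on chromosome 22, 18.6 Mb in all. Of the 286886 H3K27me3 peaks deposited for the series, 1895 overlapped these windows: 1121 of 181157 peaks in control cells and 774 of 105729 peaks in cells transfected with siORCA. The control cells had been transfected with Gl3. Each condition had 1 library, so no difference between conditions was tested and no replicate error could be given. The sequencing depth of the libraries is unknown, since the peak lists hold no read counts. An input library completed the 3 samples and was not analysed here.

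H3K27me3 is trimethylated lysine 27 of histone H3, the mark that Polycomb repressive complex PRC2 writes and that is known for broad blankets over silent genes. ORCA, also named LRWD1, is a WD-repeat protein that binds the origin recognition complex and heterochromatin. In acrocentric chromosomes the centromere lies close to one end. The short arm carries ribosomal DNA and satellites, and the base of the long arm is where satellite chromatin gives way to the gene-bearing arm. This base is rich in segmental duplications, long blocks of sequence present in several near-identical copies, many of them shared between acrocentric chromosomes. On chromosome 15 the proximal long arm also carries the imprinted Prader-Willi and Angelman region, and on chromosome 22 it carries low-copy repeats that flank recurrent deletions. No gene annotation or sequence of the T2T-CHM13 build was used here, so regions are named by coordinate and peaks were not placed in genes, exons or repeats.

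In the control, peaks spanned 1504 kb of the windows, 8.09% of their bases. After siORCA they spanned 543.0 kb, or 2.92%, which is 0.361 times the control length. Chromosome 22 was the most heavily marked in both lists, with 608.6 kb of control peaks and 255.7 kb of siORCA peaks. Chromosome 14 followed in the control with 299.4 kb and chromosome 15 with 282.7 kb, and their order was exchanged in siORCA, at 107.2 and 128.2 kb. Chromosome 21 had 214.8 kb of control peaks but only 30.65 kb of siORCA peaks. Chromosome 13 was the least marked in both lists, with 98.84 and 21.33 kb. The ratio of siORCA to control length was thus lowest on chromosome 21 (0.143) and chromosome 13 (0.216), intermediate on chromosome 14 (0.358), and highest on chromosome 22 (0.420) and chromosome 15 (0.453). Leaving out 1 chromosome at a time, the pooled ratio ran from 0.321 without chromosome 22 to 0.397 without chromosome 21.

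The peak number gave another order. Chromosome 22 held 278 control peaks and 292 siORCA peaks, and chromosome 14 held 170 and 155. Chromosome 15 held 300 and 189, chromosome 21 held 232 and 79, and chromosome 13 held 141 and 59. On chromosomes 14 and 22 the difference in covered length was therefore a difference in peak width more than in peak number: the widest control peak there measured 125.7 kb and the widest siORCA peak 18.84 kb. Over all windows the median peak was 491 bp wide in the control and 376.5 bp in siORCA, against 515 and 414 bp in the whole lists. The pooled ratio depended on which peaks were admitted. It was 0.205 when only peaks with a −log10 q of at least 2 were kept, against 0.3975 over all chromosomes. With only peaks of a fold of at least 3 it was 0.605, against 0.911 over all chromosomes. The fold limit kept 173 control peaks and 571 siORCA peaks of the windows.

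Set beside other regions, the pooled length ratio of the windows lay between those of the centromeric side and the arm. The length ratio over all chromosomes was 0.4475, and over the other 18 chromosomes it was 0.444. In the 0.5 Mb just before each window, on the side of the array, it was 0.778. In the next stretches of equal length further down the same 5 arms it was 0.153. Without chromosome 15 it was 0.294 there, beside 0.340 in the windows without that chromosome. The next stretch of chromosome 15 alone held 600.2 kb of control and 35.71 kb of siORCA peaks. Over the rest of the 5 long arms the ratio was 0.207. By chromosome, the window's ratio was above that of its next stretch on chromosomes 14 (0.358 and 0.216), 15 (0.453 and 0.0595) and 22 (0.420 and 0.321). It was below on chromosomes 13 (0.216 and 0.417) and 21 (0.143 and 0.257). The windows held 0.7275% of the length of the whole control list and 0.587% of that of the siORCA list.

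**Figure D1:**
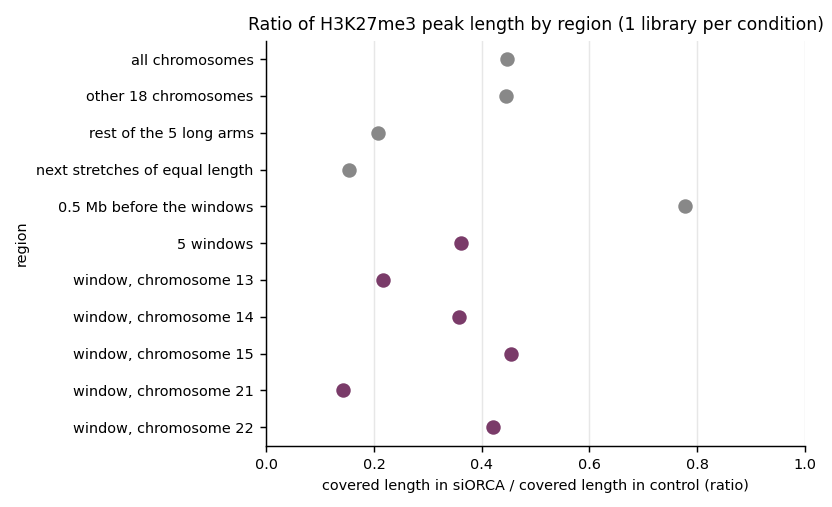
Covered length in siORCA divided by covered length in control (x axis, ratio) for each region (y axis); each point is 1 ratio from 1 library per condition. The 5 windows (purple) ranged from 0.143 on chromosome 21 to 0.453 on chromosome 15, and the pooled windows lay at 0.361, between the next stretches (0.153) and the 0.5 Mb before the windows (0.778).

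H3K27me3 coverage fell just before the windows on all 5 chromosomes, but on chromosomes 14 and 22 it rose again inside. In the 100 kb bin that ends 100 kb before each window, control peaks covered from 42.4% on chromosome 22 to 85.4% on chromosome 21, and siORCA peaks from 36.3% on chromosome 22 to 66.7% on chromosome 21. In the 100 kb bin that touches the window from outside, control coverage was 6.26% (chromosome 15), 11.95% (chromosome 13), 14.9% (chromosome 21), 32.7% (chromosome 22) and 36.6% (chromosome 14). The siORCA coverage of the same bins ran from 1.75% on chromosome 15 to 11.7% on chromosome 22. The siORCA list thus thinned out before the window start on all 5 chromosomes. In the control this step was deep on chromosomes 13, 15 and 21. It went from 60.3% to 36.6% on chromosome 14 and was shallow on chromosome 22, from 42.4% to 32.7%. In the second 100 kb inside, control peaks covered 94.7% on chromosome 14 and 94.0% on chromosome 22, and siORCA peaks 43.8% and 43.9%. These values lay above those of the bin that ends 100 kb before the window. Counting both lists, 2 peaks crossed a window boundary.

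The ratio of siORCA to control length was already low in the bin touching the window from outside, from 0.174 on chromosome 21 to 0.359 on chromosome 22, against 0.655 to 0.854 in the bin before it. In the first 100 kb inside, control coverage was 44.9% (chromosome 22), 41.3% (chromosome 21), 41.1% (chromosome 14), 19.9% (chromosome 13) and 3.98% (chromosome 15). The siORCA coverage was 3.87%, 4.70%, 4.49%, 1.33% and 0.673% in the same order. All 5 of these bins had a siORCA to control ratio between 0.06695 and 0.169, below the 0.361 of the whole windows. Control peaks thus covered from 19.9% to 44.9% of the first 100 kb on 4 chromosomes, while siORCA peaks covered under 5% of it on all 5.

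Pooled coverage declined with distance from the centromere as far as 3 Mb into the windows, with 1 interruption. Pooled over the 5 chromosomes, control peaks covered 55.5% of the last 0.5 Mb before the windows, 24.1% of the first 0.5 Mb inside, 8.44% of the next, 12.25% from 1 to 1.5 Mb and 5.29% from 1.5 to 2 Mb. From 2 to 2.5 Mb they covered 2.93% and from 2.5 to 3 Mb 1.83%. The siORCA peaks covered 43.1%, 7.88%, 1.88%, 5.71%, 1.88%, 0.803% and 0.374% of the same steps. The decline was interrupted from 1 to 1.5 Mb in both lists by chromosome 22, where control peaks covered 45.02% and siORCA peaks 24.1%. The other 4 chromosomes lay between 1.17% and 6.55% in the control there. Chromosome 21 had 17.75% in the control from 0.5 to 1 Mb and had 1.97% in siORCA. Chromosome 15 showed no steady decline in the control, with 11.5% in the first 0.5 Mb and 12.7% from 1.5 to 2 Mb. Beyond 3 Mb, pooled control coverage fell no further. From 3 to 3.5 Mb, on 3 chromosomes, it was 2.76%, with 4.37% in siORCA. From 3.5 to 4 Mb, on 2 chromosomes, it was 5.55%, with 0.851% in siORCA. On chromosomes 15 and 22, siORCA length exceeded control length from 3 to 3.5 Mb. The lengths were 29.30 kb against 15.41 kb on chromosome 15 and 35.40 kb against 21.79 kb on chromosome 22.

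**Figure D2:**
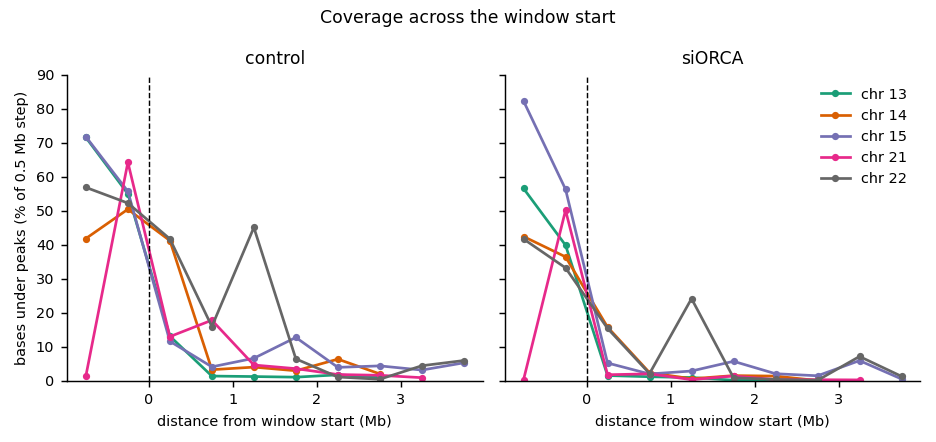
Share of bases under peaks (y axis, %) in 0.5 Mb steps by distance from the window start (x axis, Mb; dashed line at 0), control left and siORCA right, 1 line per chromosome and 1 library per condition. In these 0.5 Mb steps, coverage is lower just after the window start than just before it in both lists. In 100 kb bins, control coverage is higher just inside the start than just outside on chromosomes 13, 14, 21 and 22. Chromosomes 14 and 22 keep 41.2% and 41.7% in the first control step, and chromosome 22 has a second maximum of 45.02% from 1 to 1.5 Mb.

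By 100 kb bin, the windows comprised 186 bins, of which 129 held at least 1 kb of peaks in either list and 21 held none in both. The median bin held 2.60 kb of control peaks and 0.5635 kb of siORCA peaks. A bin was counted as lower when its siORCA length was at most 0.5 times its control length, and as higher when it was at least 2 times. Of the 129 bins, 93 were lower (72.1%), beside 79.8% of the 19721 bins measured the same way on all chromosomes. Another 10 bins were higher (7.75%), beside 3.00% on all chromosomes. By chromosome, 22 of 25 measured bins were lower on chromosome 21 and 13 of 16 on chromosome 13. On chromosome 14 16 of 22 were lower, on chromosome 15 23 of 35 and on chromosome 22 19 of 31. Chromosome 22 had 4 of the higher bins, chromosome 15 had 3, chromosome 14 had 2, chromosome 13 had 1 and chromosome 21 had 0. The lower share is close to the background and is no result about the windows; the higher share rests on 10 bins, and 7 of them lay on chromosomes 15 and 22.

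**Figure D3:**
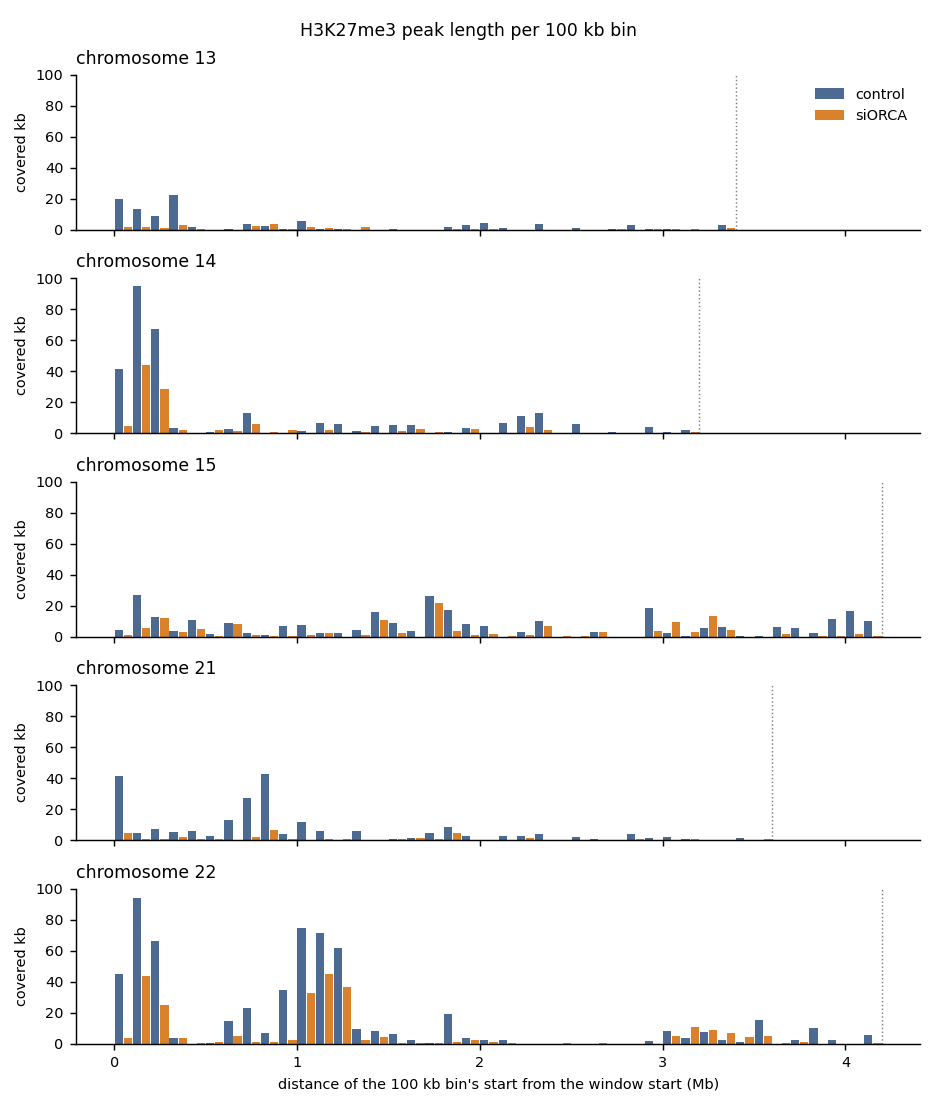
Peak length per 100 kb bin (y axis, kb) by distance of the bin from the window start (x axis, Mb) on each chromosome, with control in blue and siORCA in orange; the dotted line marks the window's end and each bar is 1 library. Control length is concentrated in the first 0.3 Mb of chromosomes 14 and 22, from 0.9 to 1.3 Mb on chromosome 22 and in 3 tall bins of chromosome 21, where siORCA is low.

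A small number of bins carried much of the mark. The 10 fullest control bins held 43.8% of the control length in the windows, and the 10 fullest siORCA bins held 55.6% of the siORCA length; 7 bins were in both sets. Across the 186 bins, control and siORCA length had a Pearson r of 0.871 and a Spearman rho of 0.661, given as a description, since neighbouring bins share domains. Without the 7 bins of at least 50 kb in the control, r was 0.450. In these 7 bins, siORCA length was 0.482 times the control length, beside 0.640 in the 889 such bins of the other 18 chromosomes. In the 10 bins with 20 to 50 kb in the control it was 0.167, beside 0.501 in 1139 bins elsewhere. In these 10 bins the ratio ran from 0.0540 to 0.832 with a median of 0.111, and all but 1 bin, on chromosome 15, were at or below 0.212. In the 56 bins with 1 to 5 kb the order was opposite, 0.460 in the windows and 0.214 elsewhere. In the 50 bins with 5 to 20 kb it was so too, 0.288 and 0.231. The 63 bins with less than 1 kb in the control held 12.86 kb of control and 24.09 kb of siORCA peaks. Their ratio was 1.87, beside 0.707 in 9660 such bins elsewhere. These classes are cut by control length, the divisor of the ratio. The rule itself thus favours a high ratio in the class with the least control length.

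Chromosome 22 held the greatest covered length in both lists and the control peaks with the highest fold. Its largest cluster lay about 1 Mb into the window, from 16.7 to 17.1 Mb, with 242.1 kb of control peaks and 116.2 kb of siORCA peaks. It was made of 3 joined domains, a domain being a run of peaks at most 3 kb apart and at least 20 kb long. The first, from 16759268 to 16854464, had a control coverage of 73.9% and a siORCA coverage of 12.3%. The second, from 16859614 to 16936294, had 90.2% and 58.5%. The third, from 16971962 to 17060983, had 94.98% and 64.4%. The 2 domains nearer the telomere had siORCA to control length ratios of 0.648 and 0.678. The neighbour on their centromeric side had a ratio of 0.166. The fullest siORCA bin of the window, from 16.9 to 17 Mb, held 71.13 kb of control peaks and 44.80 kb of siORCA peaks.

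The peak with the highest fold of all windows in the control lay in the last of these domains, an 81.82 kb peak from 16977030 to 17058847. Its deposited fold over background was 6.21 and its −log10 q was 11.97, which ranked 89th by fold among the 181157 control peaks. In siORCA the same interval held 15 peaks, which covered 68.3% of it, with a highest fold of 4.29. The second domain held a 59.69 kb control peak with a fold of 5.92, over which 12 siORCA peaks covered 72.85%. Within this cluster the siORCA peaks were shorter pieces, the widest 18.84 kb, and 113.5 of their 116.2 kb lay under control peaks. The background behind the folds is not stated, so folds of the 2 lists set side by side give no difference in level.

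At the start of its window, chromosome 22 carried another control domain of 178.4 kb, from 15870119 to 16048484, with 90.6% of its bases under control peaks and 38.1% under siORCA peaks. It contained the longest siORCA domain of this window, 59.64 kb from 15925576 to 15985214. The bin from 15.9 to 16 Mb was both the fullest control bin and the bin with the largest siORCA deficit, at 93.98 kb in the control against 43.86 kb. A short domain beside it, from 16053516 to 16079438, had coverages of 64.5% and 7.28%. A domain from 16505766 to 16539992 had a control coverage of 48.8% and a siORCA coverage of 2.82%, the lowest siORCA coverage among the 13 control domains. From 18 to 18.7 Mb the window was nearly bare, with 0 control peaks and 2 siORCA peaks in 7 bins.

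Chromosome 14 carried most of its mark at the very base of the arm. A control domain of 231.0 kb, the longest of any window, ran from 12850661 to 13081682 and had a control coverage of 82.8% and a siORCA coverage of 32.1%. Within it lay the longest siORCA domain of any window, 74.17 kb from 12916984 to 12991154. The fullest bin, from 12.9 to 13 Mb, held 94.68 kb of control peaks and 43.78 kb of siORCA peaks, all of the latter inside control peaks. It was also the bin with the largest siORCA deficit in length. The first 300 kb held 67.75% of the control length and 71.4% of the siORCA length of the whole window. Further out the window held scattered peaks, with 1 more control domain, from 13513891 to 13534247, with coverages of 41.7% (control) and 10.5% (siORCA). The strongest siORCA peak of at least 1 kb lay at its end, from 13533009 to 13534501, with a fold of 3.67, and 82.99% of it was under a control peak. The strongest control peak of that size ran from 14765113 to 14768069 with a fold of 3.49, and siORCA peaks covered 26.5% of it. The largest siORCA excess was small, in the bin from 13.3 to 13.4 Mb, with 0.448 kb of control and 2.16 kb of siORCA peaks. From 15.4 to 15.7 Mb 1 control peak and 0 siORCA peaks were listed.

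The bases of chromosomes 14 and 22 looked alike in both lists. In the first 300 kb, chromosome 14 held 202.8 kb of control peaks and chromosome 22 held 205.0 kb. The siORCA length was 76.49 kb on chromosome 14 and 72.91 kb on chromosome 22. Each base was crowned by 1 very wide control peak. On chromosome 14 it measured 124.6 kb and began 121.7 kb into the window (12921660 to 13046267, fold 3.43). On chromosome 22 it measured 125.7 kb and began 118.8 kb into the window (15918779 to 16044449, fold 3.47). These were the widest control peaks of all windows. In siORCA the first was divided into 66 peaks over 55.5% of its length and the second into 60 peaks over 52.8%.

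The likeness reached down to 10 kb steps. Over the 30 steps of the first 300 kb, control coverage on the 2 chromosomes differed by a median of 2.24 percentage points and at most by 28.9, with a Pearson r of 0.95. The siORCA coverage differed by a median of 4.575 points and at most by 34.5, with an r of 0.901. The steps are neighbours within 1 library, so these values describe the pattern only. When every pair of windows was slid along each other in 1 kb steps, in the same orientation, the best match for chromosomes 14 and 22 was at a shift of 2 kb in the control and −3 kb in siORCA. There 65.7% of the smaller control length and 47.6% of the smaller siORCA length coincided. For the other 9 pairs the best match was between 20.2% and 49.96% in the control and between 11.8% and 38.8% in siORCA. Their shifts also differed between the lists. The difference was least for chromosomes 14 and 21, at 617 kb in the control and 596 kb in siORCA. How reads that align to several places were handled is not given in the sources used here, and its part in the likeness of the 2 bases was not tested.

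**Figure D4:**
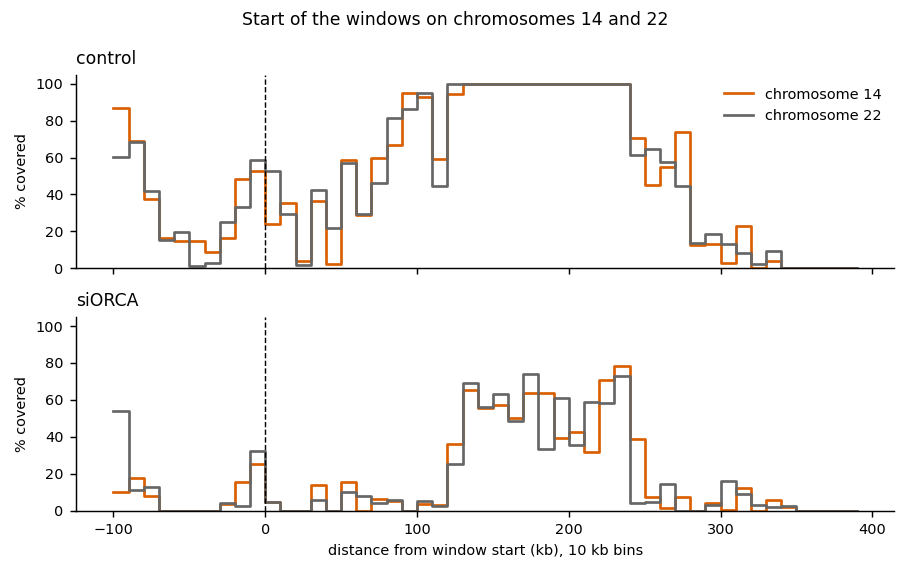
Share of each 10 kb bin under peaks (y axis, %) by distance from the window start (x axis, kb; dashed line at 0) on chromosomes 14 (orange) and 22 (grey), control above and siORCA below, 1 library each. Both chromosomes have a plateau of full control coverage of about the same length, over which siORCA coverage is broken and lower, and both lists follow the same outline on the 2 chromosomes.

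Chromosome 21 had strong control marks and little siORCA signal. A control domain of 61.53 kb began 19.46 kb into the window, from 11419458 to 11480989, with a control coverage of 59.8% and a siORCA coverage of 6.56%. A second of 74.46 kb ran from 12177256 to 12251714 and had 80.2% and 9.19%. No domain of at least 20 kb was formed by siORCA peaks. The fullest bin, from 12.2 to 12.3 Mb, held 42.91 kb of control and 6.38 kb of siORCA peaks, and its neighbour from 12.1 to 12.2 Mb held 26.97 and 1.83 kb. The bin with the largest siORCA deficit was the first of the window, from 11.4 to 11.5 Mb, with 41.33 and 4.70 kb. The strongest control peak of at least 1 kb, from 11666000 to 11668194, had a fold of 3.76 and siORCA peaks covered 14.85% of it. In siORCA the strongest was a 1066 bp peak from 13282334 to 13283399 with a fold of 3.77, of which 94.4% was also under a control peak. No measured bin of this window was higher in siORCA; the largest siORCA excess, in the last bin from 14.9 to 15 Mb, was 0.730 kb against 0.309 kb in the control.

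Chromosome 13 was the most sparsely marked window. Its control length was concentrated in the first 0.4 Mb, in bins of 19.93, 12.98, 8.51 and 22.36 kb, over which siORCA held 1.33, 1.82, 0.716 and 3.19 kb. The 2 control domains, from 17698833 to 17725884 and from 17948835 to 17990905, had control coverages of 32.8% and 46.6% and siORCA coverages of 3.93% and 4.435%. Of the 34 bins, 18 held less than 1 kb in both lists, and from 19 to 19.4 Mb 2 control peaks and 0 siORCA peaks were listed. Without the first and last 0.5 Mb, the ratio on this chromosome was 0.383 in place of 0.216, over a short length of peaks. The strongest control peak of at least 1 kb, from 17844472 to 17846312 with a fold of 3.47, had no siORCA peak. In siORCA the strongest ran from 18471226 to 18472981 with a fold of 3.71, and control peaks covered 1.595% of it. The fullest siORCA bin, from 18.4 to 18.5 Mb, held 2.195 kb of control and 3.29 kb of siORCA peaks. The largest siORCA excess was in the bin from 18.9 to 19 Mb, where no control peak was listed and siORCA peaks spanned 1.47 kb.

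Chromosome 15 had its mark spread along the whole window in narrow peaks. Its longest domain was short and almost equally covered in both lists. It ran from 19539133 to 19560618 in the control (21.49 kb, 4 peaks) and from 19539171 to 19560638 in siORCA (21.47 kb, 3 peaks), and in the control interval 93.3% of bases were under control peaks and 95.4% under siORCA peaks. This was the only control domain of the 13 with more siORCA than control length. The fullest siORCA bin, from 19.5 to 19.6 Mb, held this domain, with 26.29 kb of control and 21.88 kb of siORCA peaks. The fullest control bin, from 17.9 to 18 Mb, held 26.64 and 5.65 kb and was also the bin with the largest siORCA deficit. In the next bin, from 18 to 18.1 Mb, 12.82 kb of control and 11.67 kb of siORCA peaks stood side by side, with 8.905 kb in common. At the far end, from 21.7 to 22 Mb, control peaks spanned 37.88 kb and siORCA peaks 2.42 kb, and in the first 100 kb past the window they spanned 11.38 and 0.102 kb. When only peaks with a fold of at least 3 were kept, the ratio of this window was 1.38 in place of 0.453. Its direction thus depended on that limit. Over all windows the limit kept 173 of 1121 control peaks and 571 of 774 siORCA peaks. Folds of the 2 lists set side by side give no difference in level.

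Chromosome 15 also held the strongest narrow peaks. The siORCA peak with the highest fold of all windows ran over 3007 bp from 20440114 to 20443120, with a fold of 8.39 and a −log10 q of 12.35, and ranked 72nd by fold among the 105729 siORCA peaks. Control peaks covered 68.9% of it, with a highest fold of 3.28. The strongest control peak of this window was 3975 bp long, from 21172091 to 21176065, with a fold of 4.50. It lay under 1 siORCA peak over 96.05% of its length, and that peak had a fold of 5.52. In this window 23.3% of control peaks overlapped a siORCA peak, close to the 22.2% of all windows and below the 33.7% of all chromosomes. The largest siORCA excess of the window was in the bin from 21 to 21.1 Mb, described next.

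In 2 stretches of at least 3 neighbouring bins, each bin held 1 kb or more in either list and more siORCA than control length. They were picked for that difference, which is a description. Without the floor of 1 kb there were 2 further stretches, both thinly covered. On chromosome 13 from 18.7 to 19 Mb, siORCA peaks spanned 0.948, 0.377 and 1.47 kb of the bins and control peaks 0.225, 0.293 and 0 kb. On chromosome 15 from 20.2 to 20.5 Mb, siORCA peaks spanned 0.444, 0.351 and 3.18 kb and control peaks 0, 0 and 3.01 kb. The stretches above the floor lay further out and held more. On chromosome 15 from 20.8 to 21.1 Mb, siORCA peaks spanned 9.12, 2.98 and 13.2 kb of the 3 bins and control peaks 2.39, 0.609 and 5.60 kb, 25.32 against 8.60 kb in all. On chromosome 22 from 18.9 to 19.3 Mb, siORCA peaks spanned 10.9, 8.49, 6.76 and 4.43 kb of the 4 bins and control peaks 3.81, 7.18, 1.99 and 0.971 kb, 30.57 against 13.95 kb. By number the stretches above the floor held 48 siORCA and 8 control peaks on chromosome 15, and 64 and 15 on chromosome 22. The siORCA peaks were narrow, the widest 3.29 and 2.87 kb, and their median folds of 3.11 and 3.08 lay below the median of 3.295 for the whole siORCA list. Of the siORCA length, 6.64 and 6.06 kb lay under control peaks. This shared length cannot exceed the 8.60 and 13.95 kb of control peaks there. The rule that picked the stretches thus favours a low shared part of siORCA length.

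Most siORCA signal in the windows lay where the control was also marked, but the reverse did not hold. Of the siORCA length, 74.3% was also under control peaks, and of the control length, 26.8% was also under siORCA peaks, beside 71.2% and 31.9% over all chromosomes. By chromosome, the shared part of the siORCA length was 82.2% (chromosome 22), 82.0% (chromosome 14), 62.0% (chromosome 15), 59.4% (chromosome 21) and 35.8% (chromosome 13). The shared part of the control length was 34.5%, 29.35%, 28.1%, 8.48% and 7.72% in the same order. Counted as peaks that meet the other list over 1 bp or more, 450 of 774 were shared in siORCA (58.1%, with a 95% Wilson interval from 54.6 to 61.6%) and 249 of 1121 in the control (22.2%, 19.9 to 24.7%). Over all chromosomes these shares were 68.7% and 33.7%, so by peak number both lists shared less in the windows, while by length the siORCA share was slightly above that of all chromosomes. The intervals hold counting error alone, and neighbouring peaks of 1 domain are not independent.

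Sharing went with width. Of the siORCA peaks of at least 1 kb, 106 of 111 overlapped a control peak (95.5%, Wilson interval 89.9 to 98.1%), against 344 of 663 shorter ones (51.9%, 48.1 to 55.7%). Of the control peaks of at least 1 kb, 150 of 302 overlapped a siORCA peak (49.7%, 44.1 to 55.3%), against 99 of 819 shorter ones (12.1%, 10.0 to 14.5%). A wider peak has more bases with which to meet another, and this was not separated from any other property. Shared control peaks had a median fold of 2.83 and unshared ones of 2.68. For siORCA peaks the medians were 3.22 and 3.08. In the next stretches down the arms, 135 of 1090 control peaks (12.4%, 10.6 to 14.5%) and 184 of 345 siORCA peaks (53.3%, 48.1 to 58.5%) overlapped the other list.

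The joined domains drew these differences together. There were 13 control domains in the windows, spanning 977.4 kb, and 8 siORCA domains, spanning 0.347 times that length. Chromosome 22 held 6 control and 5 siORCA domains, chromosome 14 held 2 and 2, chromosome 15 held 1 and 1, and chromosomes 13 and 21 held 2 and 0 each. Each of the 13 control domains contained some siORCA peak length. Inside the control domains, 78.2% of bases were under control peaks and 30.2% under siORCA peaks. These domains were picked by control peaks, so a high control coverage inside them follows from the rule. The length ratio was 0.3865 inside them and 0.335 outside. Inside the 8 siORCA domains, 98.6% of bases were under control peaks and 67.1% under siORCA peaks. Control coverage ran from 90.5% to 100% among the 8 siORCA domains. The length ratio was 0.681 inside them and 0.269 outside. Since they were picked by siORCA peaks, the rule itself favours a lower ratio outside.

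**Figure D5:**
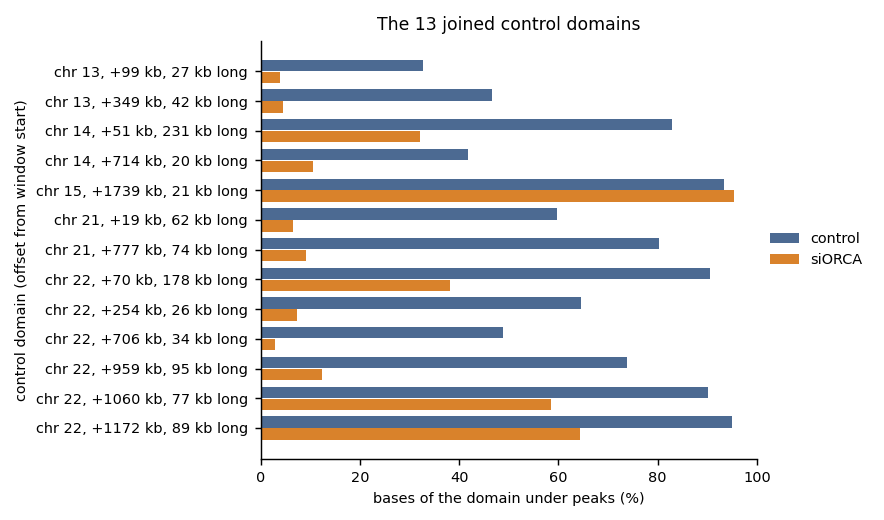
Share of bases under peaks (x axis, %) in each of the 13 joined control domains (y axis, by chromosome, offset from the window start and length), control in blue and siORCA in orange, 1 library each. The domain on chromosome 15 is covered over 93.3% and 95.4%; siORCA coverage is 58.5% and 64.4% in 2 domains of chromosome 22, 32.1% and 38.1% in the long domains at the start of chromosomes 14 and 22, and between 2.82% and 12.3% in the other 8.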

How the data were processed

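H3K27me3 ChIP-seq of U2OS cells was deposited as 1 list of broad peaks per ChIP library. Per the labels' protocols, fixation was with 1% formaldehyde during 10 min, and single-end reads of 101 cycles were made. Trimmomatic, Bowtie2, SAMtools, bcl2fastq and the T2T-CHM13 build come from the submitters' processing notes. Not given in the sources used here: the peak caller, its background and its treatment of multiply aligned reads. The deposited fold is a ratio over background, and the deposited −log10 p-values and −log10 q-values were taken as they stand (lowest −log10 q 1.00 in both lists). The deposited score was not used. Read depth is unknown.

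Peaks were merged and counted in bases with Python 3.11.15, numpy 2.4.6 and pandas 2.3.3; Wilson intervals came from scipy 1.17.1. Domains joined peaks at most 3 kb apart into runs of at least 20 kb. Bins of 100 kb with at least 1 kb in either list were measured. The scripts were tested on simulated data. Coordinates count from 1. The end of a chromosome is the last peak end in either list. Regions named follow a rule: per window, the fullest bin of each list, the bins with the largest siORCA deficit and excess, the longest domain of each list and the strongest peak of at least 1 kb; the other regions were chosen after their values were seen. The windows, rules and comparisons were chosen with earlier results of these data known.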

Additional observations from a re-analysis of the deposited data

How the results depend on the processing

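No paired analysis was possible because each condition had 1 library, and for the same reason no library could be left out. Of 66 recomputed values, 32 stayed close to the reported one, 33 moved further and 1 changed direction. Close meant within 1.5 times the reported value, or for shares within a Wilson interval of the share. For shares of length this is not the interval printed for peak counts, and the bases of 1 peak are not independent. The cause was not tested except where fewer peaks or bins entered. With a −log10 q of at least 2, the length ratio was 0.205, and by chromosome 0.0665 on 14, 0.0371 on 21 and 0.237 on 22. The higher bins then numbered 1, the shared parts were 17.3% of control and 84.4% of siORCA length, and there were 2 siORCA domains, with a domain length ratio of 0.101. With only peaks of fold 3 or more, the ratio was 0.605. By chromosome it was 0.414 on 13, 0.597 on 14, 1.38 on 15 and 0.2565 on 21. Only chromosome 15 changed direction in any setting run. The fold limit kept 173 control peaks and 571 siORCA peaks of the windows. Lower bins then numbered 37 and higher bins 26, the shared parts were 37.15% and 61.4%, and there were 8 control domains and a domain length ratio of 0.619. With equal numbers of peaks in the 2 whole lists, the length ratio was 0.435 in the windows, beside 0.545 over all chromosomes. In that setting 31.0% of control length was shared. Without the first and last 0.5 Mb, the ratio on chromosome 13 was 0.383 and 65.5% of siORCA length was shared. Lower and higher bins numbered 57 and 5 of 80 with 200 kb bins (71.25% and 6.25%). They numbered 54 and 4 of 70 with at least 5 kb covered (77.1% and 5.71%), and 138 and 16 of 192 with 50 kb bins (71.9% and 8.33%). Shares over all chromosomes are not given for these settings or for the limits on q and fold. Under those 2 limits the number of measured bins is not given either. A gap of 1 kb gave 4 siORCA domains and a domain length ratio of 0.191, and a gap of 10 kb gave 30 control and 21 siORCA domains. As peaks overlapped over 50% of their length, 7.76% of control and 51.9% of siORCA peaks were shared. Settings added after seeing the data gave ratios of 0.348 without the 2 control domains of at least 100 kb, 0.383 without the initial 0.5 Mb and 0.321 without chromosome 22. Depth is unknown, so absence of a peak does not show absence of the mark.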

Other observations

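Besides chromosomes 14 and 22, the best matches of peak outline between windows in the control were those of chromosomes 13 and 22 (49.96% of the smaller control length at a shift of 881 kb) and of chromosomes 21 and 22 (49.71% at 179 kb). In siORCA the same pairs matched best at other shifts, −196 kb (31.94%) and −636 kb (38.84%). Within single windows, control and siORCA length per 100 kb bin had a Pearson r of 0.956 on chromosome 14 (32 bins), 0.903 on chromosome 22 (42 bins), 0.809 on chromosome 21 (36 bins), 0.604 on chromosome 13 (34 bins) and 0.590 on chromosome 15 (42 bins). These are descriptions over bins that share libraries and domains.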
